A study of Mus musculus with 2 samples.

Results

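RNF and TRIM genes encode 2 large groups of proteins, most of which carry a RING finger, the zinc-binding domain through which many of them act as ubiquitin ligases. They were measured here in erythroblasts, the nucleated precursors of red cells. The rule took every row of the deposited gene tables that maps, without its version number, to a protein-coding mouse gene whose symbol is Rnf or Trim followed by a digit. It found 150 members, 83 Rnf genes and 67 Trim genes, among 43346 Ensembl genes and 21474 protein-coding genes. The annotation used for symbols held 153 such genes, and the other 3 (Rnf212b, Rnf223 and Trim61) were not analysed here.

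The cells were Ter119-positive primary cells from the livers of pooled male and female mouse embryos at 14.5 days of gestation, with no strain, transgene or treatment given in the labels. Their poly(A) RNA was sequenced as paired ends in 2 libraries, which the labels number as biological replicates 1 and 2 of 1 group under 1 donor entry, so differences between these samples may be technical, and no conditions could be compared. The 2 libraries held 51190555 and 44256287 expected counts in all, and globin genes took 86.0% and 84.4% of the summed TPM (a level set per unit of transcript length and scaled to 1 fixed total per library). Of the erythroblast markers, 9 of 9 measured had 1 TPM or more in both libraries. The same was so for 4 of 12 macrophage, 2 of 11 hepatocyte, 2 of 8 megakaryocyte, 3 of 9 neutrophil and 0 of 9 lymphoid markers. Summed TPM in libraries 1 and 2 was 13.5 and 21.2 for macrophage, 11.13 and 13.48 for hepatocyte and 11.39 and 14.53 for megakaryocyte markers. It was 10.55 and 12.86 for neutrophil, 0.28 and 0.42 for lymphoid, and 1450 and 1766 for erythroblast markers. The part of such cells in the members' levels was not tested, and fewer cells of a type cannot be told apart from less RNA per cell.

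A ubiquitin ligase brings a ubiquitin-charged conjugating enzyme to a protein and so marks that protein for the proteasome, for sorting or for a change of activity. RNF proteins share the RING and little else. Most TRIM proteins carry a RING, B-box zinc fingers and a coiled coil in a fixed order, followed by a variable C terminus. Red cell precursors rebuild their protein content as they mature, and several members have been tied to that process. Trim58 is a ligase of late erythroblasts that degrades the motor protein dynein before the nucleus is expelled, and Trim10 was described as a RING protein needed for terminal differentiation of mouse erythroid cells.

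Promoter sequences are shown for the Trim members linked to red cells that were detected, Trim10 and Trim58, and for the Rnf members that led when only coding transcripts were counted, Rnf10 and Rnf187. Each is the 250 bases upstream of the RefSeq start on the GRCm38.p6 build, read 5′ to 3′ on the gene's own strand. The windows lie at chr17:36869324-36869573 on the plus strand for Trim10, chr11:58640215-58640464 on the plus strand for Trim58, chr5:115272896-115273145 on the minus strand for Rnf10 and chr11:58938907-58939156 on the minus strand for Rnf187. Capitals mark matches, on either strand, to AGATAA or to CCNCNCCC. AGATAA is a form of the letters bound by GATA factors such as the red cell regulator Gata1, and other forms were not searched. CCNCNCCC stands for letters bound by factors of the family of Klf1.
Trim10: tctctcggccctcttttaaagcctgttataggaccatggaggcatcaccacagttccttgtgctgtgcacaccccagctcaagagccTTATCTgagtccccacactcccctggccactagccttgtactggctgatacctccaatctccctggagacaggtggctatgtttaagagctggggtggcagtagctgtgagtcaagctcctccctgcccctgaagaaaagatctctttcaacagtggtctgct
Trim58: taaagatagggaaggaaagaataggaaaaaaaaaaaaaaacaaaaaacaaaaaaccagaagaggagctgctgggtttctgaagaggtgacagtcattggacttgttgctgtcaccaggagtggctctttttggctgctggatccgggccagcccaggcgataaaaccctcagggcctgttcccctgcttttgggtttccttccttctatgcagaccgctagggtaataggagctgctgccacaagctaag
Rnf10: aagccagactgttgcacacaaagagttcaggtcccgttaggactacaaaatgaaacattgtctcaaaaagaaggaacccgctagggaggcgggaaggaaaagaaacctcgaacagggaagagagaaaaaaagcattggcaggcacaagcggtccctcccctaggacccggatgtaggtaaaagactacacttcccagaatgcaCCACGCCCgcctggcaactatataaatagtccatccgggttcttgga
Rnf187: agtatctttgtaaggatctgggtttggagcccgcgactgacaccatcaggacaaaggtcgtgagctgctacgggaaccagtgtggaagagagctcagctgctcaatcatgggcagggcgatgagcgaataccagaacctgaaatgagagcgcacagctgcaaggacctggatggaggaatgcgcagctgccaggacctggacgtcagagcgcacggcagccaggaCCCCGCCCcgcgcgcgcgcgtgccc

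The Trim10 window held 1 match to AGATAA, on the opposite strand and 163 bases before the start. The Rnf10 and Rnf187 windows each held 1 match to CCNCNCCC, 47 and 25 bases before their starts, and the Trim58 window held neither. Windows were found in the RefSeq table for 116 of the 150 members, 148 windows in all. AGATAA was present in 6 of those 148 windows (4.05%), against 9.99% of the 32851 windows in the table. CCNCNCCC was present in 51.4% of the members' windows, against 45.9% of all windows. The stricter form CCACACCC, which also matches CCNCNCCC, was in 4.73% of the members' windows and 3.20% of all windows. CANNTG, the E-box, was in 68.9% of the members' windows and 66.2% of all windows. The core of the interferon-stimulated response element was in 5.41% of the members' windows and 2.98% of all windows. These are matches of letters in a fixed window and not binding sites.

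A gene was counted as detected when it had at least 1 TPM in both libraries. By that measure 27 of 83 Rnf members (32.5%) and 10 of 67 Trim members (14.9%) were detected, 24.7% of both together, against a background of 20.0% of all protein-coding genes. No count at all was found in either library for 14 Rnf members (16.9%) and 21 Trim members (31.3%), against a background of 35.1%. A count of 0 allows up to 0.0586 CPM (counts scaled to a library's total) in library 1 and 0.0678 in library 2, for counting error only. Between these ends, 3 Rnf and 3 Trim members reached 1 TPM in a single library, 17 Rnf and 10 Trim members stayed under 1 TPM with 10 or more counts in both, and 22 Rnf and 23 Trim members had under 10 counts in at least 1 library. These shares describe the sets and were not tested.

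The median over all members of the mean TPM was 0.24 for Rnf genes and 0.015 for Trim genes, against 0.02 for all protein-coding genes. Among detected genes the medians lay close together, at 4.94 TPM for Rnf, 5.80 TPM for Trim and 5.02 TPM for all protein-coding genes. The Rnf members summed to 499 TPM in library 1 and 735 TPM in library 2, and the Trim members to 98.8 and 116 TPM. A few genes made up these sums, since the 3 highest members took 60.6% of the Rnf sum and 65.7% of the Trim sum. Rnf123 alone gave 33.9% of the Rnf sum. Without it, a comparison chosen after its values were seen, the Rnf sum was 388 TPM in library 1 and 428 TPM in library 2. Trim10 gave 41.3% of the Trim sum.

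**Figure D1:**
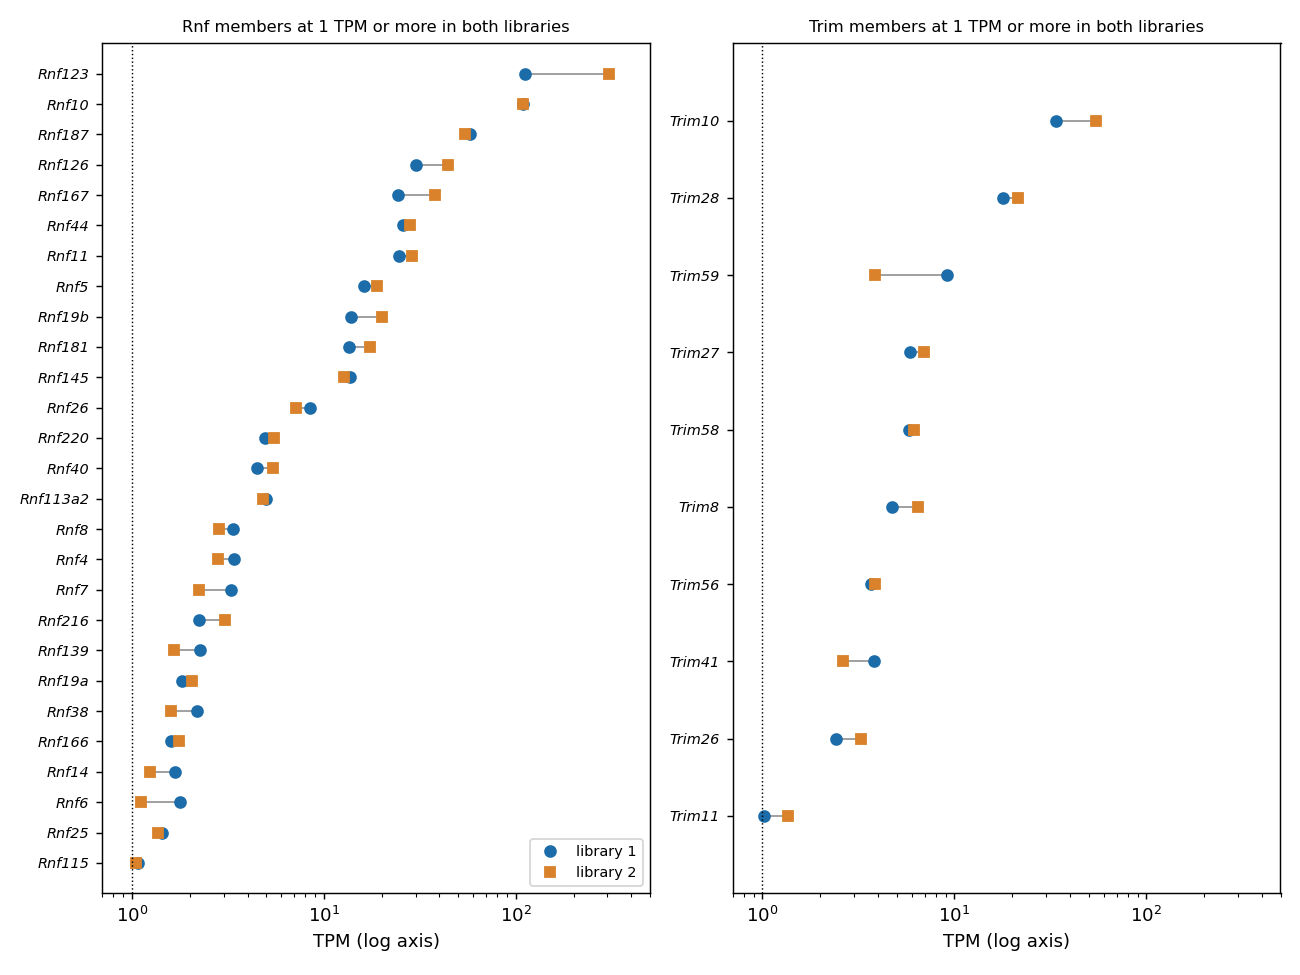
TPM on a log axis of the 27 Rnf members (left) and 10 Trim members (right) with 1 TPM or more in both libraries, with circles for library 1, squares for library 2 and a dotted line at 1 TPM. Rnf123 stands highest with the widest gap, 111 TPM in library 1 and 307 TPM in library 2, while Rnf10 has almost the same value in both.

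Of the 5 members linked to red cell formation, 2 were detected. Trim10 (chr17:36869574-36877833 on mm10, plus strand) had 33.7 TPM in library 1 and 54.8 TPM in library 2, a mean of 44.3 ± 14.9 TPM (SD, n = 2), the highest of any Trim gene. Trim58 (chr11:58640465-58652404, plus strand) had 5.78 TPM in library 1 and 6.20 TPM in library 2, a mean of 5.99 ± 0.30 TPM (SD, n = 2). Both are annotated with a single, protein-coding transcript, and their ranges did not overlap. The dynein heavy chain gene Dync1h1 had 39.3 TPM in library 1 and 51.7 TPM in library 2, but its coding transcripts had 1.24 and 1.70 TPM. Rnf41, whose product acts on the erythropoietin receptor, had 0.26 and 0.22 TPM. Trim33, whose zebrafish counterpart is needed for red cell formation, had 0.11 TPM in library 1 and 0.08 TPM in library 2. Trim35, first described as a gene of haemopoietic lineage switching, had 0.05 and 0.14 TPM. All of these last 3 had counts in both libraries, from 15 to 96 per library, but lay far under Trim10 and Trim58.

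Rnf123 (chr9:108051534-108083346, minus strand), the catalytic subunit of a complex that ubiquitinates the cell cycle inhibitor p27, had 111 TPM in library 1 and 307 TPM in library 2. Its expected counts, 25297 in library 1 and 25941 in library 2, were far closer to each other. The gap in TPM followed the short transcript Rnf123-205, a retained-intron RNA of 445 bases, which took 54.5 TPM in library 1 and 242 TPM in library 2. That transcript held 6.39% of the gene's counts in library 1 and 22.0% in library 2, but 49.1% and 78.8% of its TPM. It lies at chr9:108051693-108052230, inside the span of Gmppb on the plus strand (chr9:108049242-108052801). No strand setting is given in the sources used here, so which gene the reads there came from is uncertain and was not tested. Gmppb itself was given 59 counts in library 1 and 73 in library 2, and the expected counts of both genes were whole numbers. The coding transcripts of Rnf123 had 52.2 TPM in library 1 and 57.6 TPM in library 2, a mean of 54.9 ± 3.81 TPM (SD, n = 2). Most of its counts, 63.6% in library 1 and 55.0% in library 2, fell on the coding transcript Rnf123-207, which starts 4045 bases upstream of the RefSeq start, so no promoter is shown for this gene.

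Rnf10 (chr5:115241412-115272898, minus strand), a ligase that marks proteins of the small ribosomal subunit in human cells, had 109 TPM in library 1 and 108 TPM in library 2, nearly all from coding transcripts. Rnf187 (chr11:58932288-58938916, minus strand), a coactivator of the transcription factor Jun, had 58.0 TPM in library 1 and 54.5 TPM in library 2. Counted over coding transcripts alone, Rnf10 and Rnf187 came first and second, at means of 107.9 and 56.3 TPM, followed by Rnf123 and Trim10. The means of Rnf187 and Rnf123 then differed by less than the SD of either, 2.43 and 3.81 TPM, so their order is not set by these data.

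Both ligases that work with the chaperone BAG6 in clearing stray membrane proteins were detected. Rnf126 had 30.2 TPM in library 1 and 44.2 TPM in library 2, and Rnf115 had 1.07 and 1.05 TPM. Their partner Bag6 had 104 TPM in library 1 and 98.8 TPM in library 2, of which 50.02 and 53.96 TPM came from coding transcripts. Rnf126 thus lay well above Rnf115 in each library, with values that did not overlap.

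Of 11 ligases of the endoplasmic reticulum and membrane quality control, 4 were detected. Rnf5, an endoplasmic reticulum membrane ligase, had 16.3 TPM in library 1 and 18.8 TPM in library 2. Rnf145, a ligase of sterol regulation, had 13.7 TPM in library 1 and 12.7 TPM in library 2. Rnf26, which positions endosomes from the endoplasmic reticulum, had 8.50 and 7.19 TPM. Of its 31-base words, 72.5% also occur in transcripts given to other genes in the annotation used for symbols, Gm49380 sharing the most. In the deposited values, transcripts of the Gm49380 name were counted within Rnf26, with 0 counts in library 1 and 123.12 each in library 2. Words shared with these transcripts thus leave the total of Rnf26 unchanged. The expected counts of Rnf26 were not whole in either library, and how far sharing affects its value was not tested. The share of such words was 37.1% for Rnf5 and 26.1% for Rnf139, whose expected counts were whole in both libraries. Rnf139 had 2.26 TPM in library 1 and 1.66 TPM in library 2. Rnf183 and Rnf186 had no count in either library.

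Of 9 transmembrane ligases with a protease-associated domain, most of which sit on endosomes, lysosomes or the cell surface, only Rnf167 was detected, with 24.3 TPM in library 1 and 37.8 TPM in library 2. Rnf149 had 1.27 TPM in library 1 and 0.76 TPM in library 2. The list's other members were each under 1 TPM in both libraries, and Rnf13, Rnf133 and Rnf148 had no count in either.

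RING-between-RING ligases pass ubiquitin through a cysteine of their own, and 4 of 8 were detected. Rnf19b had 13.8 TPM in library 1 and 20.1 TPM in library 2, but its coding transcripts had 1.93 and 3.40 TPM, because the processed transcript Rnf19b-204 took 86.0% and 83.1% of the gene's TPM. Rnf31, the catalytic subunit that builds linear ubiquitin chains, had 0.95 TPM in library 1 and 1.36 TPM in library 2. Its partner in that complex Rbck1 had 15.7 TPM in library 1 and 18.7 TPM in library 2, and 8.53 and 10.54 TPM over coding transcripts. The other partner, Sharpin, had 7.45 and 9.93 TPM, but 0.46 and 0.69 TPM over coding transcripts, under the 0.95 and 1.27 TPM of Rnf31 by that measure. Rnf217 had no count in either library.

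Of the 6 Rnf ligases of histones and chromatin, 2 were detected. Rnf40 had 4.46 TPM in library 1 and 5.42 TPM in library 2, while Rnf20, with which it forms the ligase of histone H2B, had 0.75 and 0.99 TPM. Rnf8, which marks chromatin at DNA breaks, had 3.38 TPM in library 1 and 2.85 TPM in library 2. Of that, 92.2% and 96.2% was assigned to Rnf8-206, a transcript annotated as a target of nonsense-mediated decay, and the coding transcripts had 0.12 and 0 TPM. Rnf168, which follows Rnf8 at breaks, had 0.73 TPM in library 1 and 0.91 TPM in library 2. Rnf2, the Polycomb ligase of histone H2A, had 0.65 and 0.51 TPM, and Rnf169, which binds ubiquitinated chromatin, had 0.08 and 0.15 TPM. Among the ligases that recognise SUMO chains, Rnf4 had 3.40 TPM in library 1 and 2.82 TPM in library 2, and Rnf111 had 0.13 and 0.11 TPM.

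In the family of Rnf114, Rnf166 had 1.59 TPM in library 1 and 1.75 TPM in library 2, and Rnf125 was lowest with 1 count in library 2 alone. Of the 41 Rnf members in none of these classes, 12 were detected, and several stood among the 15 highest. Rnf44 had 25.8 TPM in library 1 and 28.0 TPM in library 2, and 17.51 and 17.95 TPM over its coding transcripts. Rnf11, an adaptor of the ubiquitin-editing enzyme A20, had 24.7 and 28.7 TPM. Rnf181 had 13.5 TPM in library 1 and 17.4 TPM in library 2, but 9.72 and 8.71 TPM over its coding transcripts. Rnf220 had 4.91 and 5.48 TPM, and Rnf113a2, a gene of 1 exon, had 5.0 and 4.82 TPM. The deposited credibility bounds, whose level is not stated, kept the first 4 of these above 1 TPM in both libraries. For Rnf113a2 they were 4.07 and 5.27 TPM in library 1 but 0.545 and 4.89 TPM in library 2, where the posterior mean was 2.75 TPM.

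Trim28, the corepressor that joins zinc-finger repressors to the histone methyltransferase Setdb1, was the one detected member of 4 Trim proteins with a PHD finger and bromodomain. It had 17.9 TPM in library 1 and 21.6 TPM in library 2, and the retained-intron transcript Trim28-209 of 777 bases took 80.1% and 80.9% of that. Its coding transcript had 1.87 TPM in library 1 and 2.24 TPM in library 2, so the level depends on which transcripts are counted. Setdb1 had 0.63 and 0.48 TPM. Trim24, a cofactor of nuclear receptors, had 0.67 TPM in library 1 and 0.62 TPM in library 2, and Trim66 had 2 counts and 1 count.

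Of 26 Trim proteins with a PRY-SPRY domain outside the antiviral cluster described next, 6 were detected, among them Trim10 and Trim58. Trim27 had 5.91 TPM in library 1 and 6.98 TPM in library 2, but 3.74 and 3.35 TPM over its coding transcripts. Trim41 had 3.80 and 2.63 TPM, and Trim26 had 2.43 and 3.28 TPM. Trim11 had 1.02 TPM in library 1 and 1.36 TPM in library 2, just over the minimum. Trim39 had 0.70 and 0.68 TPM, and Trim25, a ligase of the antiviral sensor RIG-I, had 0.93 TPM in library 1 and 0.39 TPM in library 2. At the low end, 7 of the 26, Trim43a among them, had no count in either library.

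The antiviral cluster is a run of 10 related Trim genes on mouse chromosome 7 (chr7:104218793-104507849), relatives of the retrovirus restriction gene Trim5. None of the 10 was detected, and 7, Trim34b among them, had no count in either library. Trim12c was highest, with 0.04 TPM in library 1 and 0.05 TPM in library 2, from 15.2 and 14 expected counts, and the copies are alike enough that reads can be divided among them. Of 18 interferon-stimulated genes, 2 (11.1%) were detected, against 20.0% of all protein-coding genes, and this share was not tested. Irf7 was highest of the 18, with 2.39 TPM in library 1 and 1.61 TPM in library 2.

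Trim8, which has no C-terminal domain, had 4.74 TPM in library 1 and 6.48 TPM in library 2, and Trim56, of the same class of 5 measured genes, had 3.70 and 3.86 TPM, while Trim40 had no count. The membrane-anchored Trim59 had 9.16 TPM in library 1 and 3.87 TPM in library 2, against 2.54 and 2.10 TPM for its coding transcripts, and Trim13, its counterpart in the class, had 1 count in library 2 alone. None of the 8 Trim proteins with a COS box, which bind microtubules or muscle filaments, was detected, and 4, Trim54 among them, had no count in either library. Trim46 was their highest at 0.02 and 0.01 TPM. None of the 4 with NHL repeats, which bind RNA or control differentiation, was detected, with Trim3 highest at 0.15 and 0.07 TPM and Trim71 lowest with 1 and 3 counts. Of 3 with other C termini, Trim37 had 0.88 TPM in library 1 and 1.33 TPM in library 2, and Trim45 had 0.02 and 0.04 TPM. Trim23, which carries a domain like that of ARF proteins, had 1.00 and 0.57 TPM. A 331-base transcript absent from the annotation used for transcript types took 91.6% and 81.2% of the Trim23 level, from 16.95 and 6.86 counts. Of the 4 members in the class without a RING, which need not hold every such member, Trim44 was highest at 0.30 and 0.21 TPM. Trim29 had no count.

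**Figure D2:**
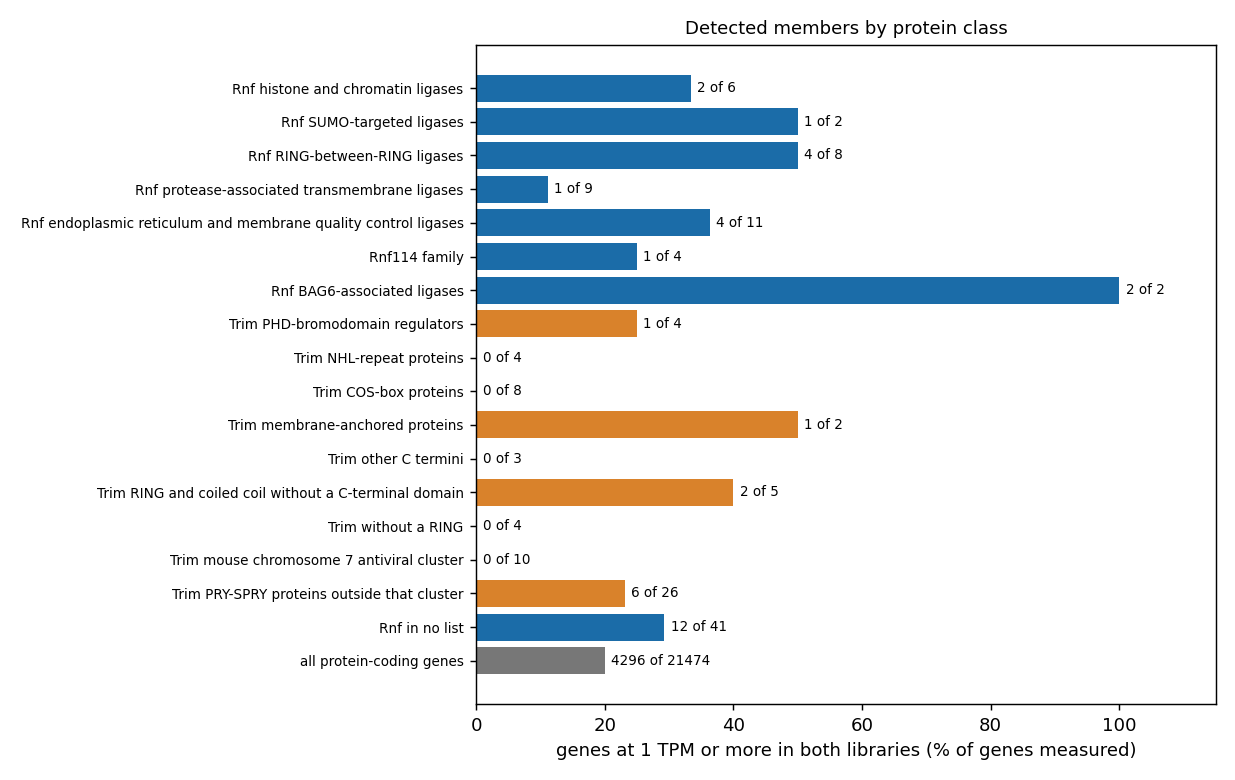
Percent of the genes measured in each class that had 1 TPM or more in both libraries, with counts beside the bars, Rnf classes in blue, Trim classes in orange and all protein-coding genes in grey. The COS-box, NHL-repeat and chromosome 7 antiviral classes of Trim genes hold 0 detected genes of 8, 4 and 10, against 20.0% of all protein-coding genes.

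Of 44 RING ligases with other names, 16 (36.4%) had 1 TPM or more in both libraries, against 20.0% of all protein-coding genes. Mkrn1 was highest of these, with 106 and 94.9 TPM in libraries 1 and 2, close to Rnf10, and Lnx1 had no count. Of 17 partners and substrates of members, 9 (52.9%) were detected, with Bag6 highest. The shares of both lists were not tested. Bmi1, at 0.13 and 0.01 TPM, was the lowest of the 17 and not detected.

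The members just over the minimum were Trim11, Rnf115 and Rnf6, the last with 1.78 TPM in library 1 and 1.11 TPM in library 2. Those just under it were Rnf31, Trim37 and Rnf114, the last at 0.83 TPM in both. The lower of the values of each of these 6 ran from 0.83 to 1.11 TPM.

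The transcript tables showed which RNA each member's level came from. Of 54 members that reached 50 counts in each library, the leading transcript by TPM was protein coding in both libraries for 42, and the leading transcript by counts for 50. For 6 of the 54 (11.1%), Rnf123, Rnf19b, Rnf145, Rnf8, Rnf4 and Trim28, coding transcripts held under 50% of the gene's TPM in both libraries, against a background of 16.5% of such protein-coding genes. Rnf145 had 5.13 TPM in library 1 and 6.11 TPM in library 2 over its coding transcripts, which held 90.8% and 93.7% of its counts. With coding transcripts alone, a measure added after the data were seen, 25 Rnf and 10 Trim members reached 1 TPM in both libraries, and Rnf7 and Rnf8 no longer did. By that measure 16.9% of all protein-coding genes were detected.

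**Figure D3:**
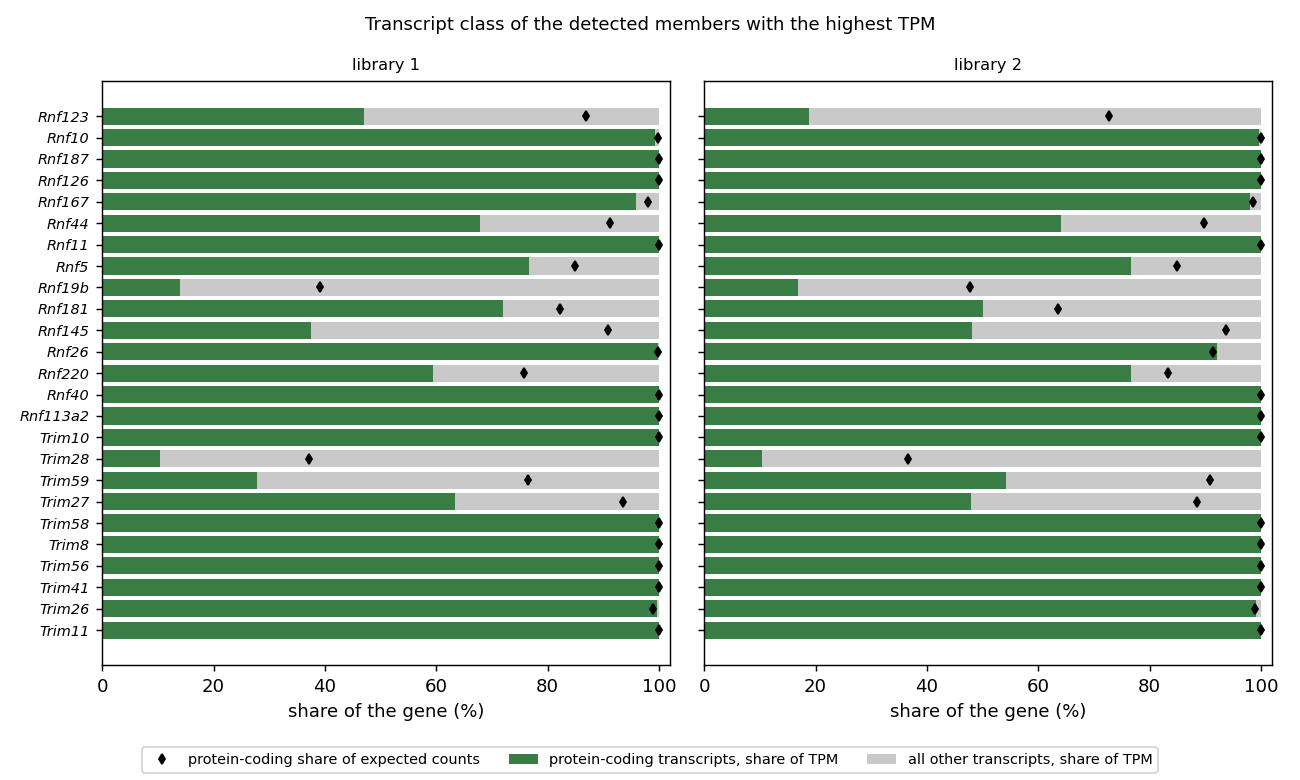
Share of each gene's TPM from protein-coding transcripts (green) and all other transcripts (grey) in library 1 (left) and library 2 (right), for the 15 Rnf and 10 Trim detected members with the highest mean TPM and 50 or more counts in both libraries; diamonds give the coding share of expected counts. Trim28 and Rnf19b are mostly grey in both libraries, and Rnf123 is mostly grey by TPM but mostly coding by counts.

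Trim17 (chr11:58954685-58973098, plus strand), a PRY-SPRY member, was the clearest difference between the libraries, with 1703 expected counts in library 1 and 0 in library 2, or 4.94 and 0 TPM. The deposited credibility bounds of its TPM, whose level is not stated, were 4.46 and 5.24 in library 1, with an upper bound of 0.266 in library 2. With the 0 counts set to 3, for counting error only, its scaled count was 497-fold higher in library 1. That is not a lower limit, since the deposited bound of 0.266 TPM in library 2 allows a smaller difference. The longer Trim17 transcript starts at the same base as the histone gene Hist3h2a. Its whole first exon of 708 bases, 19.3% of the transcript, lies within the 2146-base transcript of Hist3h2a. Hist3h2a went the other way, with 306 expected counts in library 1 and 991 in library 2. Together both genes had 2009 counts in library 1 and 991 in library 2, so the sum was 1.78-fold higher in library 1 after scaling. How the quantifier divided the shared reads cannot be seen in the tables, and the level of Trim17 is uncertain.

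**Figure D4:**
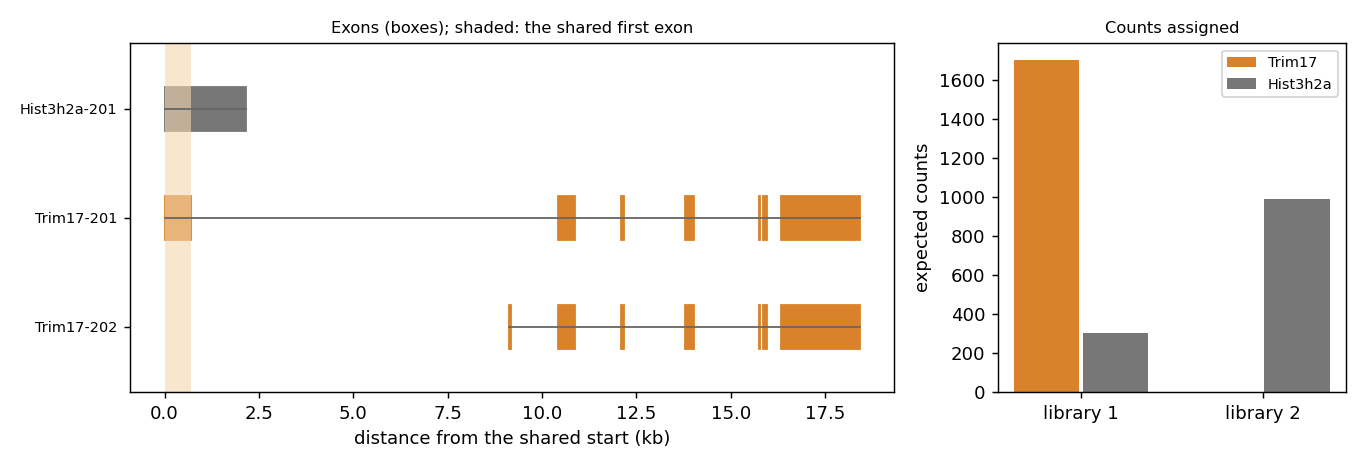
Left, exons of the transcript of Hist3h2a and of both Trim17 transcripts as boxes against the distance in kb from the start that Trim17 and Hist3h2a share, with the shared first exon shaded. Right, bars of expected counts given to each gene in each library, where library 1 has 1703 for Trim17 and 306 for Hist3h2a, and library 2 has 0 and 991.

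The libraries were then compared gene by gene with a two-sided exact binomial test on rounded expected counts scaled by edgeR, with p-values adjusted over 10955 genes, as library 1 over library 2. This test sets the difference against counting error only and compares these libraries, not conditions. Of the 56 Rnf members tested 26 passed an adjusted p of 0.05, 13 in each direction, and of the 28 Trim members 14 passed, 8 higher in library 1 and 6 higher in library 2. The 40 of 84 members are read against a background of 44.9% of all genes tested, 22.5% higher in library 1 and 22.4% higher in library 2. The median size of the log2 ratio was 0.37 for Rnf members, 0.34 for Trim members and 0.37 for all protein-coding genes tested. The members' share was thus near that of other genes.

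Among members that passed and reached 100 counts in at least 1 library, Trim17, Rnf34, Trim25, Trim59 and Rnf14 had the largest ratios toward library 1. Trim59 had 644 counts in library 1 and 345 in library 2, a log2 ratio of 0.71 (adjusted p = 9.1e-13, exact binomial test). Rnf34 had 111 and 53 counts, a log2 ratio of 0.87 (adjusted p = 0.00087, exact binomial test). Trim25 had 180 counts in library 1 and 95 in library 2, and Rnf14, a RING-between-RING ligase, had 462 and 262, with log2 ratios of 0.73 and 0.63. Each had 1.54-fold or more of the scaled count of library 2.

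Rnf214, Rnf19b, Trim10, Rnf167 and Rnf126 had the largest ratios toward library 2. Trim10 had 6938 counts in library 1 and 8809 in library 2, a log2 ratio of -0.54 (adjusted p = 2.4e-117, exact binomial test). Rnf214 had 218 and 294 counts, a log2 ratio of -0.62 (adjusted p = 8.1e-06, exact binomial test). Rnf19b, Rnf167 and Rnf126 had log2 ratios of -0.56, -0.49 and -0.38, at 1012, 3938 and 4429 counts in library 1 and 1303, 4853 and 5063 in library 2. Trim58 did not pass, with 1160 counts in library 1 and 971 in library 2 and a log2 ratio of 0.07 (adjusted p = 0.42, exact binomial test). At these depths even small ratios pass, as with Rnf10 at 0.14 (adjusted p = 1.3e-27, exact binomial test).

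**Figure D5:**
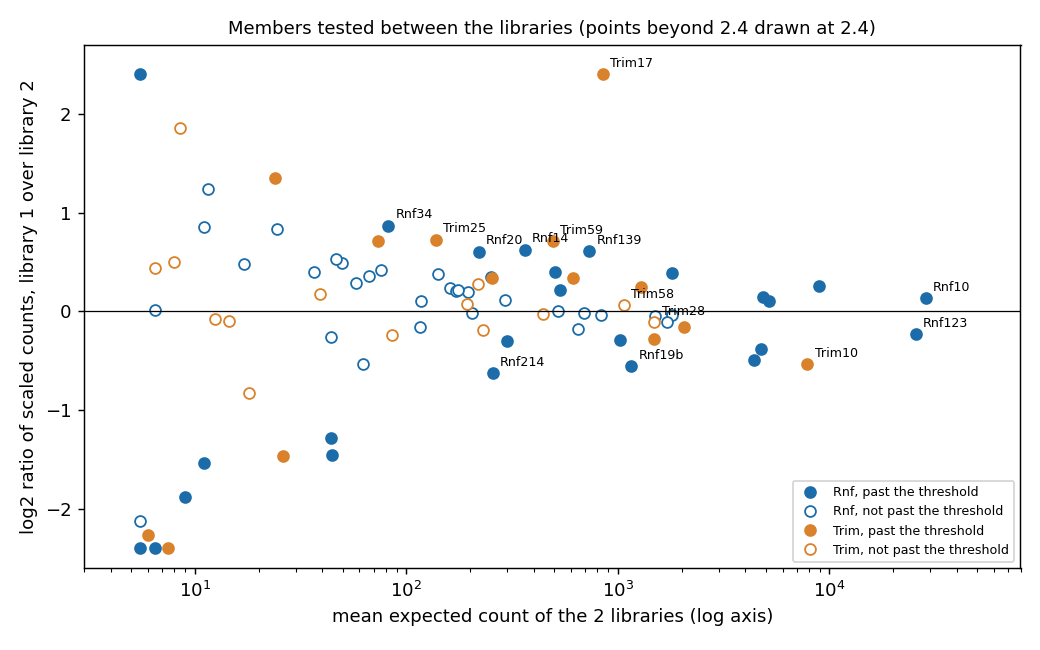
Log2 ratio of scaled counts, library 1 over library 2, against the mean expected count on a log axis for the 84 members tested, with Rnf in blue, Trim in orange, filled points past an adjusted p of 0.05 and ratios beyond 2.4 in size drawn at 2.4. Trim10 at -0.54 and Trim59 at 0.71 are among the filled points on the right, and Trim17 sits at the upper edge.

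Ratios of TPM and of counts did not always have the same sign. For the 11 detected members with a single transcript the TPM ratio was a median of 0.17 log2 units lower than the count ratio. Of the 37 detected members 5 had opposite signs by the 2 measures, and 32 lay within 1.5-fold between the libraries by TPM. The 5 were Trim27, Rnf11, Rnf44, Trim58 and Rnf145. Trim58, with 1 transcript, was higher in library 2 by TPM and in library 1 by scaled counts. The deposited length of Trim27 was 2700 bases in library 1 and 2191 in library 2, and that of Rnf145 was 1562 and 1896 bases, so for these the length that enters TPM differed as well.

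Of the 150 members, 49 lie in 16 runs in which each member lies within 500 kb of the next, and 10 of the 16 runs hold no detected member. Of those 49 members 9 were detected, beside 37 of all 150 members (24.7%) and 20.0% of all protein-coding genes. The 3 largest runs are the antiviral cluster and one each on chromosomes 11 and 17. On chromosome 11, Trim58, Rnf187, Trim17 and Trim11 lie within chr11:58640465-58991458, and 3 of these 4 were detected. On chromosome 17, 6 members lie within chr17:36837134-36947986 and 2 of them, Trim26 and Trim10, were detected, while their neighbours Trim15, Trim31, Trim40 and Rnf39 were not. Trim10 at 33.7 and 54.8 TPM and Trim15 at 0.08 and 0.09 TPM show how far adjacent members of the run differed.

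The GC content of a gene's transcripts moved with its level. Spearman's rho between GC content and mean TPM, across genes that share the libraries and given as a description, was 0.30 over 83 Rnf members, 0.25 over 67 Trim members and 0.30 over all protein-coding genes. Of the 23 members under 45% GC 3 were detected, or 13.0%, and of the 34 members at 55% or more 13 were, or 38.2%. Over all protein-coding genes the shares were 7.29% under 45% GC and 32.0% at 55% or more, higher at the high end as well. From 45 to under 50% GC 11.4% of members were detected, against 16.6% of all protein-coding genes. From 50 to under 55% GC these shares were 32.7% and 25.6%. The members' share thus did not rise at every step. The part of GC content in the levels was not tested.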

How the data were processed

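Gene and transcript tables of 2 libraries of 1 group were used. Per the file headers, the deposited values were expected counts (estimates that need not be whole), TPM, FPKM, posterior mean TPM and, per transcript, the percent of a gene's TPM. The deposited credibility bounds of TPM, treated as a score because the headers give no level, were used for Trim17 and a few Rnf members. The deposited listing names mm10 and GENCODE M4; the aligner and quantifier were not given in the sources used here, nor was strand. Symbols, positions and transcript types came from GENCODE M21 on the same assembly, and promoters from RefSeq.

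Expected counts were rounded, and library sizes took TMM factors of 0.993 and 1.01 from edgeR 4.0.16 under R 4.3.3. Genes with 10 or more counts over both libraries entered the binomial test, with Benjamini-Hochberg adjustment over 10955 genes; 5591 passed an unadjusted 0.05. The test was checked on simulated counts. An expected count was called whole within 0.01; 79 of 83 Rnf and 64 of 67 Trim members were whole in both libraries. Summaries of transcript shares needed 50 counts in both libraries, and the shares printed for Trim23, with 44 and 34 counts, did not meet that minimum. Medians of log levels used log2(TPM + 1).

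The members, lists, tests and alternatives were chosen with earlier results of these data known. Genes named were the 15 highest of each family, all red cell, histone and PHD-bromodomain members, the highest and lowest of other lists of members, the 5 largest ratios in each direction and the 3 members nearest 1 TPM on each side; others were named after their values were seen. Protein sequences were not used here. DESeq2 1.42.0 size factors were an alternative. Python 3.11.15, numpy 2.4.6, pandas 2.3.3, scipy 1.17.1 and matplotlib 3.10.9 were used.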

Additional observations from a re-analysis of the deposited data

How the results depend on the processing

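The number of detected members moved with the measure. At a minimum of 5 TPM, 12 Rnf and 4 Trim members were detected. With TPM rescaled without the globin genes 41 and 16 were, and with a minimum of 10 expected counts 47 and 22. With library 1 alone the numbers were 28 for Rnf and 12 for Trim, and with library 2 alone 29 and 11. The summed level was 4143 TPM for Rnf and 725 TPM for Trim when TPM was rescaled without the globin genes, and the Rnf sum was 408 TPM without Rnf123. The median of log2(TPM + 1), 0.31 for Rnf and 0.02 for Trim, was -1.60 and -3.13 with a pseudocount of 0.1, and 0.97 and 0.26 over members with 1 or more counts in both libraries. With 1 library alone it was 0.20 and 0.38 for Rnf and 0.014 for Trim in either. The remaining settings moved detection, leading transcripts and members that differ by at most 1.5-fold. With posterior mean TPM the sums were 617.5 TPM for Rnf and 109.5 TPM for Trim, against means of 617 and 107.3 TPM. With 1 library alone, the Rnf sum was 499 TPM in library 1 and 735 TPM in library 2. The Trim sum was then 98.8 and 116 TPM. DESeq2 size factors, total counts, total counts without the globin genes and the count minima of 1 and 50 gave between 34 and 42 members past the threshold, against 40, and changed no direction or call of the 10 members named for their ratio. No paired analysis was possible because the series holds a single group. Depth limits members with few counts, and intervals beyond counting error cannot be had from 2 libraries.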
